A study of Drosophila melanogaster with 9 samples.

Results

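The sensory cilium of *Drosophila* neurons was examined through 10 genes chosen by name among the 17421 genes of the count tables: the kinesin-2 motor genes *Klp64D*, *Klp68D* and *Kap3*, the intraflagellar transport genes *nompB*, *Oseg2*, *Oseg5* and *rempA*, the retrograde motor gene *btv*, and the transcription factor genes *Rfx* and *fd3F*. All 10 were found in the tables, 9 had counts and were tested between genotypes, and *fd3F* was at 0 in every library. RNA came from dorsal organs, the larval olfactory organs, dissected at the third instar. The 5 *Orco* mutant libraries came from larvae homozygous for *orco1*, a null allele of the odorant co-receptor gene, and the 4 wild-type libraries from larvae without that allele. Both genotypes were in a *w1118* background and carried *Orco-Gal4* and *UAS-mCD8-GFP*, both homozygous, so the controls also bore the driver and the membrane GFP used to find the organs. Each library was made with Smart-seq2, which amplifies full-length cDNA, from 20 pooled organs picked by their GFP. Support cells and attached tissue therefore stood beside the ORNs, the olfactory receptor neurons. The samples were isolated independently.

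The outer dendrite of a fly ORN is a modified primary cilium, and the channels formed by Orco and the odorant receptors sit in its membrane. Proteins cannot be made inside a cilium, so trains of intraflagellar transport particles carry them: kinesin-2 walks outward along the axoneme with complex B, and cytoplasmic dynein-2 returns with complex A. In flies, only type I sensory neurons and developing sperm build cilia, and most other cells of the larva have none. Rfx turns on many ciliary genes in these neurons, and fd3F does so in the mechanosensory chordotonal neurons.

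*Orco* itself matched the labels. It had 0.122, 1.31, 0, 0.378 and 0 CPM (counts scaled to a fixed library size) in the *Orco* mutant libraries, against 229, 310, 385 and 232 CPM in the wild-type libraries. Library totals ran from 4090489 to 9157628 estimated counts in *Orco* mutant and from 4432832 to 7005190 in wild-type organs, and genes named as rRNA took 33.3% to 53.8% of a library. The spread between libraries of 1 genotype was large, with a common biological coefficient of variation of 0.996. Orco mutant 3 stood apart, with the smallest total and counts in 6790 genes, where the other 8 libraries had counts in 8427 to 10935. Orco mutant 2 and Orco mutant 4 were the most alike of any pair (Spearman correlation across genes 0.926, next highest pair 0.816). The genotypes were compared with edgeR's quasi-likelihood test over 8160 genes, with Benjamini-Hochberg adjustment, and the threshold for a pass was an adjusted p of 0.05.

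None of the 9 tested cilium genes passed the genotype test in either direction, against 0% of all tested genes that passed as higher and 0.0368% that passed as lower in *Orco* mutant organs. Their adjusted p in edgeR ran from 0.997 to 0.999. At an unadjusted p under 0.05 the count was also 0 of 9, where 2.21% of all tested genes were higher and 2.76% were lower. No cilium gene separated the 5 *Orco* mutant from the 4 wild-type libraries without overlap, as 1.19% of all tested genes did in the higher and 2.68% in the lower direction. The fold changes were positive for 6 genes and negative for 3, with a median log2 fold change of 0.29, beside -0.0014 over all tested genes. The 95% intervals were wide. Each of the 9 reached past a 2-fold change in at least 1 direction, and 6 did so in both. For *rempA* the interval did not reach a 2-fold higher level, and for *btv* and *Rfx* it did not reach a 2-fold lower level. Since the organs are mixed tissue, fewer ciliated cells and less RNA per cell cannot be told apart in any of these values.

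The kinesin-2 genes were the most evenly held of the set in wild-type organs. *Klp64D*, the fly KIF3A-type motor subunit, spans 5356864 to 5359392 on the minus strand of chromosome 3L (Release 6 genome) and is a gene of 1 exon. It had 37.7, 27.3, 0.276, 54.5 and 37.4 CPM in *Orco* mutant libraries, against 36.8, 28.9, 25.6 and 53.9 CPM in wild-type libraries. Orco mutant 3, where the gene rested on 1 count, lay far below the others, and the remaining libraries of both genotypes covered the same range. Its log2 fold change was -0.21 (SE 0.84, 95% interval -2.04 to 1.62).

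*Klp68D*, the KIF3B-type partner subunit, lies on the plus strand of chromosome 3L from 11795614 to 11798875. It had 44.6, 69.5, 3.31, 46.3 and 42.6 CPM in *Orco* mutant libraries, against 35.7, 61.0, 33.0 and 35.1 CPM in wild-type libraries. Again Orco mutant 3 was lowest, and Orco mutant 2 and wild-type 2 were the highest of their groups. The group means were nearly equal, 41.3 ± 23.9 CPM in *Orco* mutant (SD, n = 5) and 41.2 ± 13.3 CPM in wild-type organs (SD, n = 4), with a log2 fold change of 0.0043 (95% interval -1.40 to 1.41).

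*Kap3* encodes the non-motor subunit that joins the pair of motor chains to cargo and lies on chromosome X from 11334187 to 11340084, minus strand. It had 0.244, 79.4, 21.2, 41.9 and 44.6 CPM in *Orco* mutant libraries, against 27.9, 39.2, 45.9 and 41.1 CPM in wild-type libraries. Here the near-absent value belonged to Orco mutant 1 (2 counts) and the highest to Orco mutant 2, with every wild-type library between them. The coefficient of variation was 0.787 in *Orco* mutant and 0.198 in wild-type libraries, while the means were 37.5 ± 29.5 CPM (SD, n = 5) and 38.5 ± 7.62 CPM (SD, n = 4). On the log2 scale the fold change was -0.04 (SE 0.89), and in limma-voom it was -1.25, still without passing. Of the exonic bases of *Kap3*, 212 are shared with *CG34348* on the other strand, whose level was at most 13.1 CPM in any library.

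The 3 subunits of this motor did not drop out together. Orco mutant 1 held *Klp64D* and *Klp68D* at levels found in wild-type organs and almost no *Kap3*, whereas Orco mutant 3 held 21.2 CPM of *Kap3* and little of either motor chain. Their summed level was 82.5, 176.2, 24.8, 142.7 and 124.6 CPM in *Orco* mutant libraries, against 100.4, 129.1, 104.5 and 130.0 CPM in wild-type libraries. Of the *Orco* mutant libraries, Orco mutant 1 and Orco mutant 3 lay below the narrow band of the wild-type sums, Orco mutant 2 and Orco mutant 4 above it, and Orco mutant 5 inside it.

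**Figure D1:**
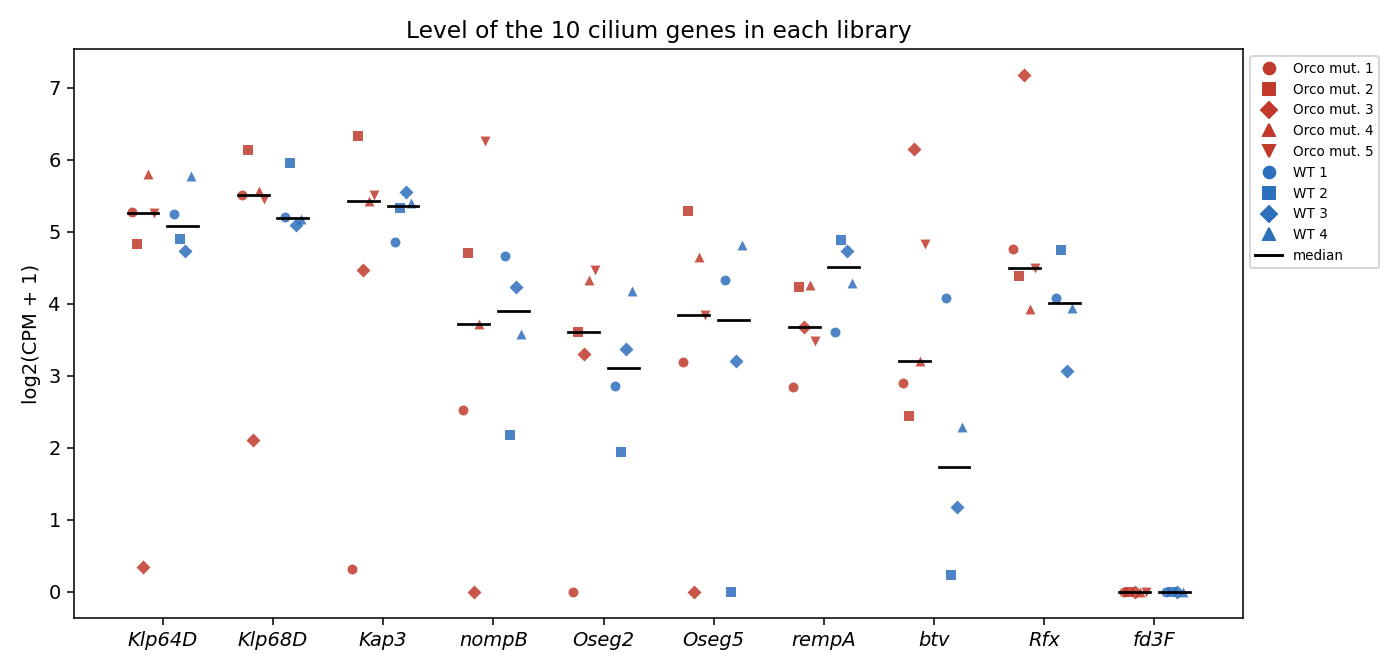
Level of the 10 cilium genes in each library, as log2(CPM + 1) on the vertical axis, with *Orco* mutant libraries in red left of wild-type libraries in blue and a bar at each group median. Single *Orco* mutant libraries sit near 0 for *Klp64D*, *Kap3*, *nompB*, *Oseg2* and *Oseg5*, Orco mutant 3 is highest for *btv* and *Rfx*, and *fd3F* is at 0 throughout.

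The complex B genes were lower and more scattered. *nompB*, the fly IFT88, named for the loss of mechanoreceptor potential in its mutants, lies on chromosome 2L from 21578292 to 21589423, minus strand. Its levels were 4.75, 25.2, 0, 12.1 and 75.3 CPM in *Orco* mutant libraries, against 24.3, 3.55, 17.8 and 10.9 CPM in wild-type libraries. Both the highest and the lowest value were in *Orco* mutant libraries. The log2 fold change was 0.73 (95% interval -1.88 to 3.34), and its sign turned without Orco mutant 5, to -0.42, and in limma-voom, to -0.29.

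*Oseg2*, the IFT172 gene, lies on chromosome 3L from 2229646 to 2235253, plus strand. It had 0, 11.2, 8.82, 19.0 and 21.1 CPM in *Orco* mutant libraries, against 6.25, 2.84, 9.31 and 17.0 CPM in wild-type libraries. Only Orco mutant 1 lacked it, and the other libraries overlapped between genotypes. Between genotypes its log2 fold change was 0.44 (SE 1.23, 95% interval -2.23 to 3.11), and its sign turned in limma-voom, to -0.80.

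*Oseg5*, the IFT80 gene, lies on chromosome 2L from 20832849 to 20835840, minus strand, and shares 11 exonic bases with *CG31674* on the other strand. It had 8.16, 37.9, 0, 24.0 and 13.4 CPM in *Orco* mutant libraries, against 19.2, 0, 8.25 and 27.3 CPM in wild-type libraries. The gene was at 0 in 1 library of each genotype, Orco mutant 3 and wild-type 2. The log2 fold change was 0.29 (95% interval -2.71 to 3.29), the widest interval among the 9 genes, and it turned to -0.26 without Orco mutant 2 and to -0.12 without wild-type 2.

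A count of 0 in these libraries bounds the level only loosely. The upper limit that a count of 0 allows, taken as 3 counts, was 0.366 CPM in Orco mutant 1, 0.827 CPM in Orco mutant 3 and 0.532 CPM in wild-type 2, and it covers counting error only, since Smart-seq2 reads are not single molecules. In the libraries where they were counted, *nompB*, *Oseg2* and *Oseg5* ran from 2.84 to 75.3 CPM. As a group the complex B genes summed to 52.2 ± 42.5 CPM in *Orco* mutant (SD, n = 5) and 36.7 ± 21.9 CPM in wild-type organs (SD, n = 4).

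The genes of the return journey leaned in opposite directions, and neither difference passed. *rempA*, the complex A subunit IFT140, lies on chromosome 2L from 553742 to 560310, minus strand. It had 6.22, 17.9, 11.9, 18.2 and 10.2 CPM in *Orco* mutant libraries, against 11.2, 28.5, 25.6 and 18.4 CPM in wild-type libraries. Unlike *nompB*, *Oseg2* and *Oseg5*, it was counted in every library, at 6.22 CPM or more, and wild-type 1 fell among the *Orco* mutant values. The log2 fold change was -0.70 (SE 0.69, 95% interval -2.20 to 0.80, unadjusted p = 0.328 and adjusted p = 0.997 in edgeR). *rempA* shares 640 exonic bases with *Tspo*, a mitochondrial membrane protein gene on the other strand. The counting ran at kallisto's default settings, which take no account of strand, so reads of the shared stretch cannot be told apart between the genes. *Tspo* was far more abundant, 145.5 to 347.7 CPM in *Orco* mutant and 214.5 to 516.2 CPM in wild-type libraries. Its part in the *rempA* values was not tested.

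*btv*, beethoven, encodes the heavy chain of the retrograde dynein and lies on chromosome 2L from 17962625 to 17982472, minus strand. Its single transcript in the tables, of 12821 nt and 25 exons, is the longest of the set. It had 6.46, 4.43, 69.7, 8.20 and 27.5 CPM in *Orco* mutant libraries, against 15.9, 0.177, 1.27 and 3.90 CPM in wild-type libraries. Orco mutant 3 and Orco mutant 5 were the highest, wild-type 1 came next, and wild-type 2 rested on 1 count. The means were 23.3 ± 27.6 CPM in *Orco* mutant (SD, n = 5) and 5.30 ± 7.20 CPM in wild-type organs (SD, n = 4). The log2 fold change of 2.13 was the largest of the 9 (SE 1.26, 95% interval -0.59 to 4.86, unadjusted p = 0.114 and adjusted p = 0.997 in edgeR), and it was 1.13 without Orco mutant 3 and 3.67 without wild-type 1.

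*Rfx*, the factor that directs ciliary gene expression in type I sensory neurons, lies on chromosome 3R from 10361760 to 10378068, minus strand. It had 26.2, 19.9, 143.0, 14.3 and 21.6 CPM in *Orco* mutant libraries, against 15.9, 25.7, 7.40 and 14.3 CPM in wild-type libraries. Apart from Orco mutant 3 the genotypes overlapped. The group means of 45.0 ± 55.0 CPM in *Orco* mutant (SD, n = 5) and 15.8 ± 7.55 CPM in wild-type organs (SD, n = 4) differed mainly through that library. The log2 fold change was 1.50 (SE 0.77, 95% interval -0.17 to 3.18) with the smallest unadjusted p of the 9 genes, 0.0743, and an adjusted p of 0.997 in edgeR. It was 0.37 without Orco mutant 3 and 0.70 in limma-voom.

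*fd3F*, a forkhead factor gene on the plus strand of chromosome X from 3802316 to 3811040, had no count in any of the 9 libraries. The limit that 0 counts allow was 0.246 to 0.827 CPM in the *Orco* mutant and 0.390 to 0.670 CPM in the wild-type libraries. *lncRNA:CR44118*, which shares 179 exonic bases with it on the other strand, was at 0 in all libraries as well. No genotype comparison could be made.

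**Figure D2:**
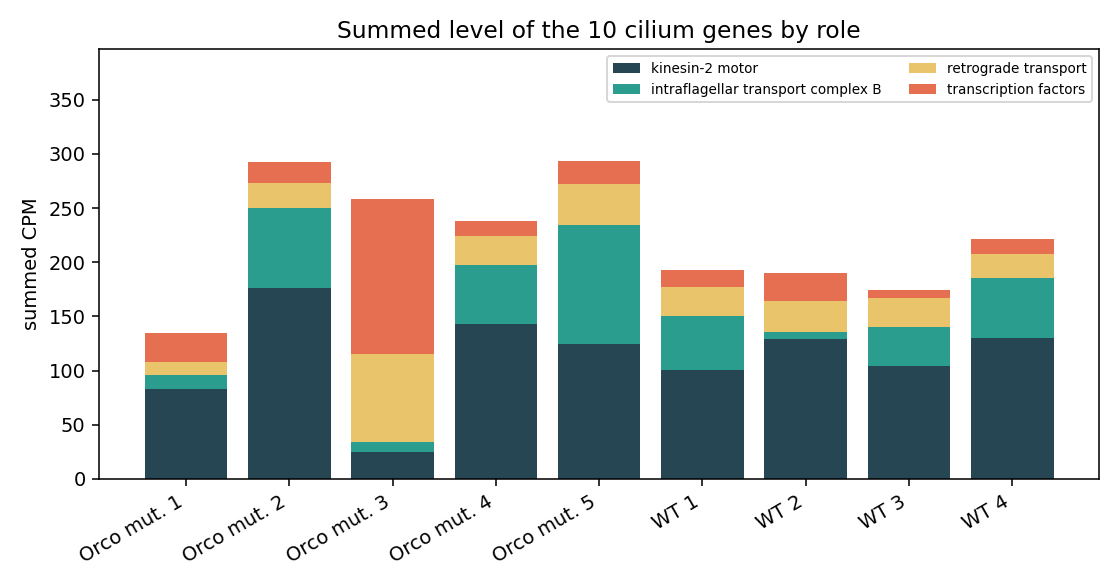
Summed CPM of the 10 cilium genes in each library, stacked by role, with the 5 *Orco* mutant libraries left of the 4 wild-type libraries. The stacks reach 134.3 to 293.7 CPM in *Orco* mutant and 174.1 to 221.9 CPM in wild-type libraries, and in Orco mutant 3 the transcription factor block (143.0 CPM, all of it *Rfx*) exceeds the kinesin-2 block (24.8 CPM).

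Added together, the 10 genes made up 134.3, 292.7, 258.2, 238.4 and 293.7 CPM of the *Orco* mutant libraries, against 193.1, 189.9, 174.1 and 221.9 CPM of the wild-type libraries. The means were 243.5 ± 65.4 CPM in *Orco* mutant (SD, n = 5) and 194.7 ± 19.9 CPM in wild-type organs (SD, n = 4), a ratio of 1.25 that lies within the spread of the *Orco* mutant libraries. Orco mutant 1 was the lowest of all 9 libraries and the other 4 *Orco* mutant libraries were above every wild-type library. The make-up of the sum also differed by library. In Orco mutant 3, *btv* and *Rfx* gave most of it and *Klp64D*, *Klp68D*, *nompB* and *Oseg5* were at their lowest of all libraries (*Oseg5* level with wild-type 2 at 0). Orco mutant 1 held the lowest *Kap3*, *Oseg2* and *rempA*. Orco mutant 2 held the highest *Klp68D*, *Kap3* and *Oseg5*, Orco mutant 4 the highest *Klp64D*, and Orco mutant 5 the highest *nompB* and *Oseg2*. Wild-type libraries held 1 of the 9 highest values, *rempA* in wild-type 2, and the lowest *btv* and *Rfx*.

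With Orco mutant 3 left out, the log2 fold changes were 0.11 for *Klp64D*, 0.30 for *Klp68D*, 0.11 for *Kap3*, 1.05 for *nompB*, 0.53 for *Oseg2*, 0.61 for *Oseg5*, -0.67 for *rempA*, 1.13 for *btv* and 0.37 for *Rfx*. None passed. *Klp64D* and *Kap3* changed sign, both close to 0 either way.

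Levels between genes were compared per transcript length, as TPM built from the transcript counts. Averaged over all 9 libraries the order was *Klp68D* at 20.4 TPM, *Klp64D* at 18.8 TPM, *Kap3* at 15.6 TPM, *Rfx* at 9.78 TPM, *nompB* at 9.74 TPM, *Oseg5* at 9.04 TPM, *rempA* at 4.46 TPM, *Oseg2* at 2.80 TPM and *btv* at 1.62 TPM, with *fd3F* at 0. The subunits of the anterograde motor thus led and the heavy chain of the retrograde motor came last of the genes counted. The lowest genes counted, *rempA*, *Oseg2* and *btv*, also had the longest transcripts, of 5308, 5265 and 12821 nt. The part of transcript length in this order was not tested. No neighbours in this order differed beyond their spread over libraries in an exact two-sided sign-flip test. The closest to doing so were *rempA* over *Oseg2*, higher in 7 of 9 libraries (exact p = 0.0938, 0.641 after Benjamini-Hochberg adjustment over 8 comparisons, smallest p possible 0.0039). *Rfx* and *nompB* were level (exact p = 0.996), although *Rfx* was higher in only 3 of 9 libraries.

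Within each genotype the kinesin-2 genes also led. *Klp68D*, *Klp64D* and *Kap3* averaged 21.3, 17.7 and 16.3 TPM in *Orco* mutant organs, against 19.2, 20.1 and 14.7 TPM in wild-type organs. *Oseg5* averaged 10.4 TPM in *Orco* mutant and 7.39 TPM in wild-type organs. The place of *Rfx* differed, at 13.8 ± 16.2 TPM in *Orco* mutant (SD, n = 5) and 4.75 ± 2.53 TPM in wild-type organs (SD, n = 4), below *nompB* at 6.96 TPM in the wild-type. *btv* averaged 2.48 ± 2.98 TPM in *Orco* mutant (SD, n = 5) and 0.541 ± 0.704 TPM in wild-type organs (SD, n = 4), the lowest of the counted genes in both.

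**Figure D3:**
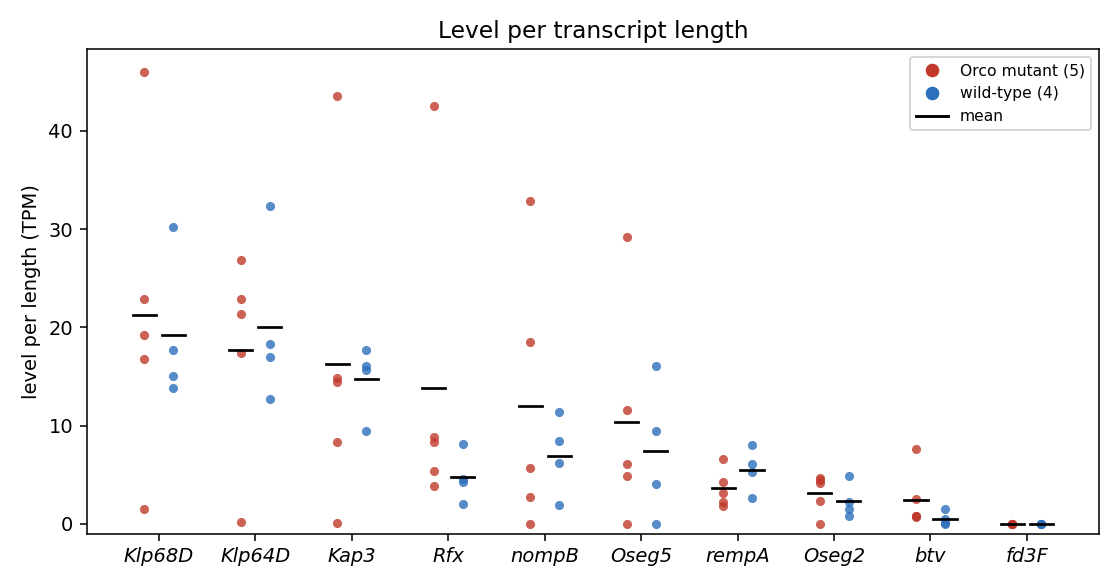
Level per transcript length (TPM) of the 10 cilium genes in each library, ordered by their mean over all 9 libraries, with *Orco* mutant points left of wild-type points. The kinesin-2 genes *Klp68D*, *Klp64D* and *Kap3* average 15.6 to 20.4 TPM, *btv* averages 1.62 TPM and *fd3F* is at 0, and the spread of libraries around most genes is wider than the steps between them.

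The tables also divide each gene's counts among its transcripts. Of the 10 genes, *Klp64D*, *Oseg2*, *Oseg5*, *btv* and *fd3F* have 1 transcript there, and *rempA* was 98.4% rempA-RC. For the others the shares are given as estimates without a test, because the reads are 51 bases long and the transcripts share most of their exons. Rfx-RJ took 100% of the gene's estimated counts in all 4 wild-type libraries and nearly all in Orco mutant 5. Rfx-RC took 99.4% in Orco mutant 2 (241.6 of 243 counts), 74.9% in Orco mutant 4 (84.6 of 113 counts) and 37.2% in Orco mutant 3 (193.1 of 519 counts). Rfx-RJ was still the main transcript in Orco mutant 1 (64.3%, beside 35.7% for Rfx-RI) and in Orco mutant 3 (62.8%), while in Orco mutant 4 the remaining 24.9% went to Rfx-RF. Rfx-RC and Rfx-RJ share 4670 nt, and 66 nt are only in Rfx-RC and 24 nt only in Rfx-RJ, so the split rests on reads over these short stretches and the junctions beside them. No *Rfx* transcript has a base that all the others lack.

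*Klp68D* also differed between libraries of 1 genotype. Klp68D-RA took 99.5%, 68.8%, 0.0036%, 99.7% and 0.0048% in *Orco* mutant libraries, against 62.1%, 84.4%, 100% and 97.0% in wild-type libraries. Klp68D-RB, which lacks 27 nt that RA has and holds none of its own, took the remainder. The 12 counts of *Klp68D* in Orco mutant 3 and the 172 counts in Orco mutant 5 were all assigned to RB. *Kap3* was divided mainly between Kap3-RF (53.7% over all libraries) and Kap3-RG (37.2%), and the leading transcript differed between libraries. *nompB* was 88.3% nompB-RC over all libraries. The exception was wild-type 2, whose 20 counts all went to nompB-RD.

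**Figure D4:**
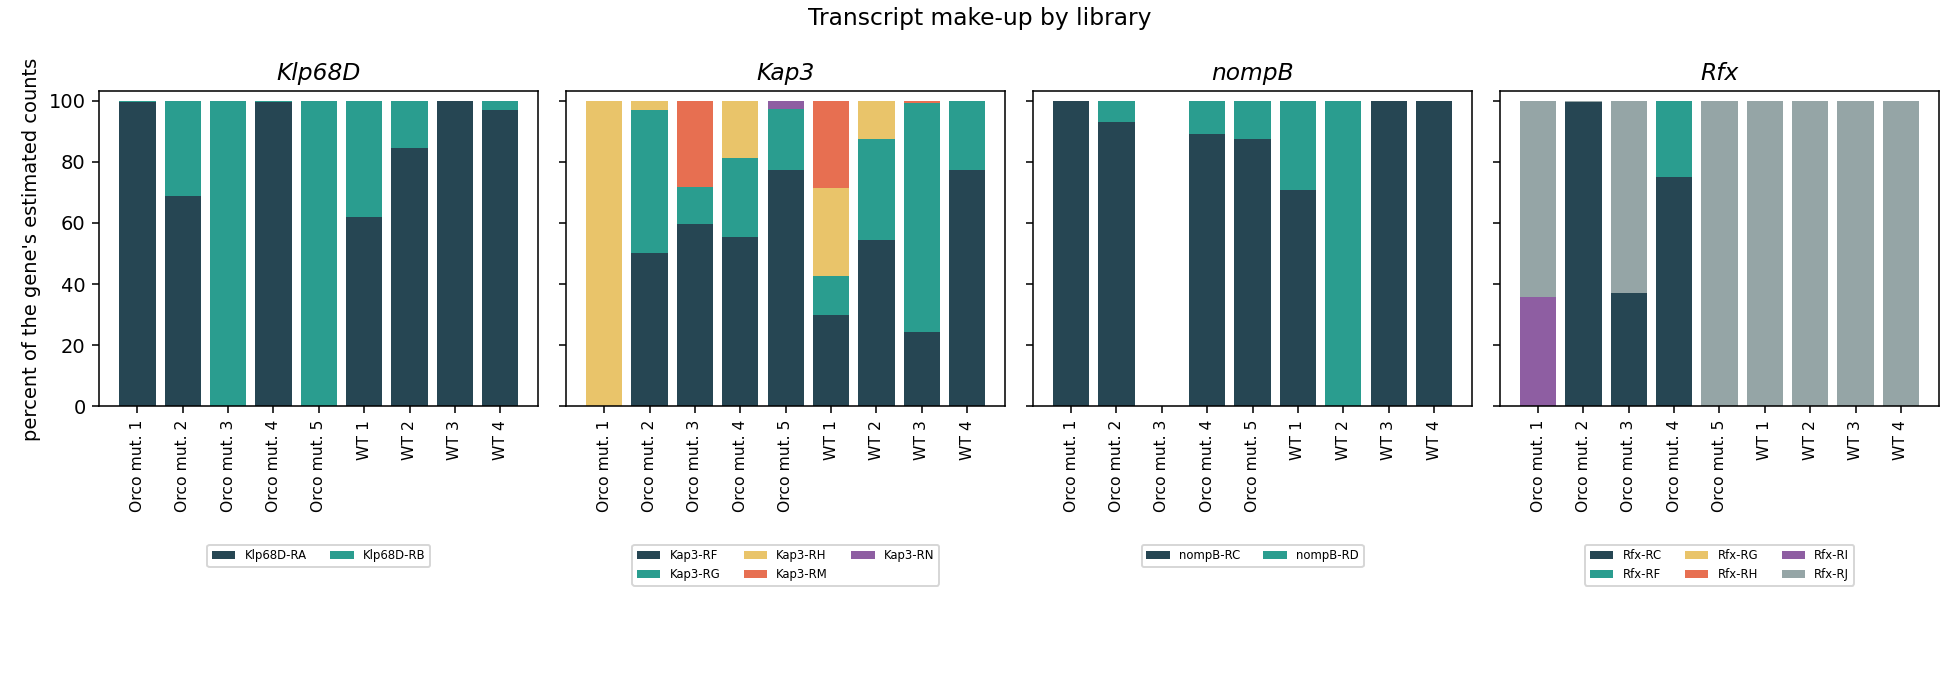
Percent of each gene's estimated counts assigned to each transcript, by library, for *Klp68D*, *Kap3*, *nompB* and *Rfx*, with *Orco* mutant libraries left of wild-type libraries. The *nompB* column of Orco mutant 3 is empty because the gene had 0 counts there, and the *Rfx* columns of all 4 wild-type libraries are 100% Rfx-RJ.

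The remaining machinery of the cilium was followed in 35 further genes, of which 29 were tested: other transport subunits, the BBSome coat that carries membrane cargo, the transition zone and basal body, and membrane trafficking factors. None passed in either direction, and 10 fold changes were positive and 19 negative, with a median log2 fold change of -0.37. On the same scale the median was 0.29 for the 9 tested genes above and -0.0014 for all tested genes. In Orco mutant 3, 15 of the 35 genes were at 0. Over the whole table that library had counts in only 6790 of the 12748 genes counted in any library. The medians were -0.29 for 12 other transport genes, -0.41 for 6 BBSome genes, -0.36 for 9 transition zone and basal body genes and -0.23 for 2 trafficking genes. At an unadjusted p under 0.05, 1 of the 29 was higher (*Plp*) and 1 lower (*Arl6*), beside 2.21% and 2.76% of all tested genes. Without overlap between libraries, 1 of the 29 was higher (*ana1*) and 2 were lower (*Arl6* and *CG3769*). Over all tested genes the shares were 1.19% higher and 2.68% lower. *Cc2d2a*, not among the 29, had 1.22 to 27.8 CPM in *Orco* mutant and 0 to 1.06 CPM in wild-type libraries, also without overlap. *B9d2* and *tctn* had the same value in every library and cannot be told apart. Both are counted among the 29 and the 19 negative, and their shared -0.36 is the median of the transition zone and basal body genes.

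*Arl6*, the small GTPase that recruits the BBSome to membranes, averaged 31.7 ± 15.2 CPM in *Orco* mutant (SD, n = 5) and 74.0 ± 27.0 CPM in wild-type organs (SD, n = 4). Its highest *Orco* mutant value was 46.6 CPM and its lowest wild-type value 51.6 CPM. In log2 its fold change was -1.22 (SE 0.50, 95% interval -2.30 to -0.15, adjusted p = 0.98 in edgeR). *CG3769*, listed with the transport genes, had 0, 9.11, 0, 8.45 and 2.73 CPM in *Orco* mutant libraries, against 19.6, 12.9, 17.8 and 13.0 CPM in wild-type libraries, with an adjusted p of 0.997 in edgeR. *Plp*, a protein of the pericentriolar material and basal body, averaged 76.2 ± 48.3 CPM in *Orco* mutant (SD, n = 5) and 16.0 ± 15.2 CPM in wild-type organs (SD, n = 4), with a log2 fold change of 2.25 and an adjusted p of 0.98 in edgeR. *ana1*, a centriole gene, averaged 9.22 ± 1.86 CPM in *Orco* mutant (SD, n = 5) and 2.29 ± 2.68 CPM in wild-type organs (SD, n = 4). The other genes with the smallest p in their lists had log2 fold changes of -1.78 for *IFT57*, -0.80 for *Kif3C*, -1.09 for *BBS5*, -0.38 for *BBS9*, 0.44 for *ktub* and -0.91 for *Arl3*. *B9d1*, a transition zone gene, averaged 6.21 ± 4.04 CPM in *Orco* mutant (SD, n = 5) and 12.5 ± 8.40 CPM in wild-type organs (SD, n = 4).

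**Figure D5:**
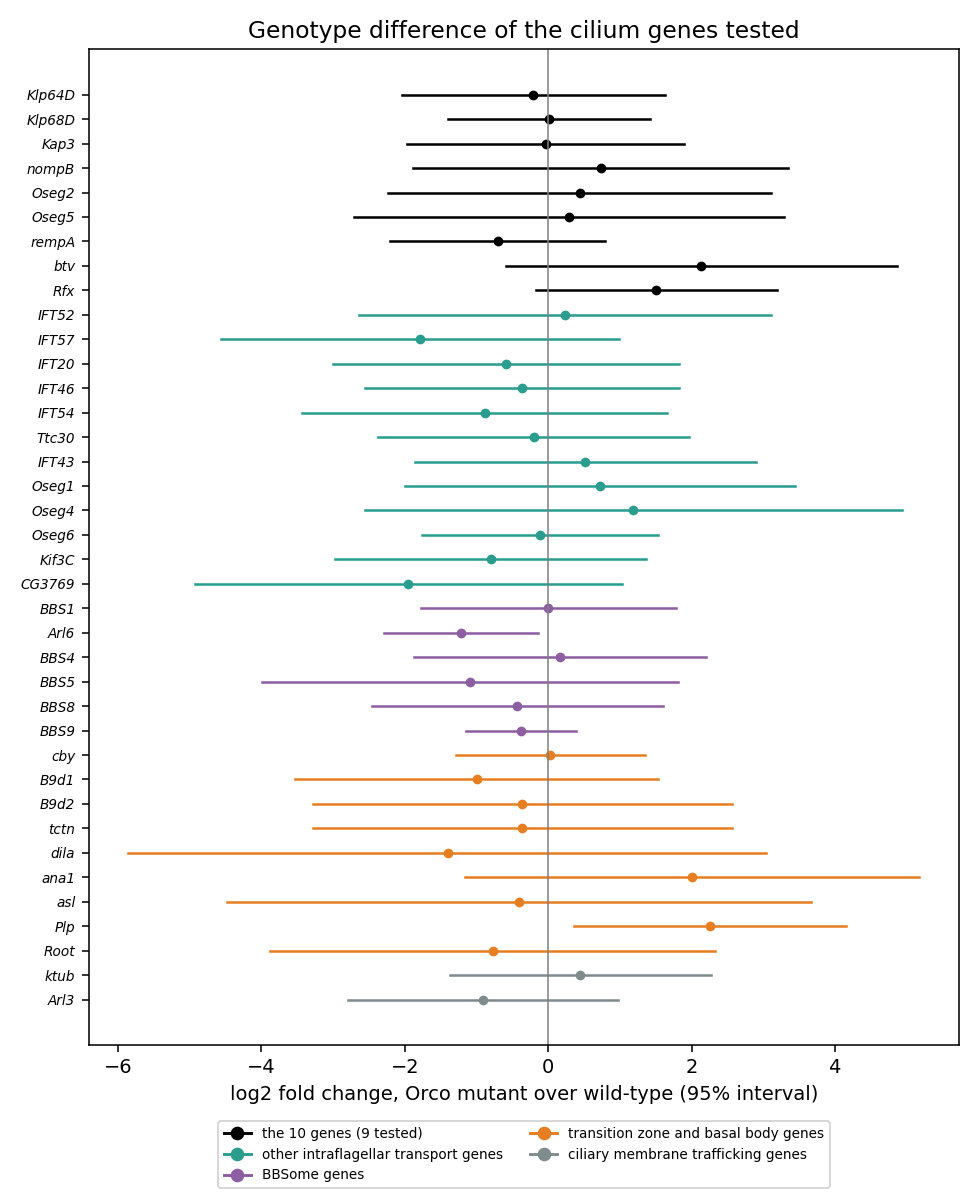
Log2 fold change of *Orco* mutant over wild-type organs with its 95% interval for the 9 tested cilium genes (black) and the 29 other tested cilium genes, coloured by list. Every interval but those of *Arl6* and *Plp*, which hold before adjustment for the number of genes, crosses 0, and *Oseg5* has the widest of the 9.

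Genes of chordotonal cilia, which carry dynein arms and mechanosensory channels that olfactory cilia lack, were checked beside *fd3F*. Of 13 such genes 9 were left out by the count filter, among them the channel genes *nan* and *iav* with 2 and 4 counts over all libraries. *Zmynd10* had the most counts of those left out, 167 over all libraries. The 4 tested were *nompC*, *Heatr2*, *DCX-EMAP* and *eys*, and none passed. *nompC*, also a channel gene, was counted in all 9 libraries. It averaged 5.72 ± 5.46 CPM in *Orco* mutant (SD, n = 5) and 9.12 ± 8.39 CPM in wild-type organs (SD, n = 4). *DCX-EMAP*, a microtubule-binding protein of ciliated mechanoreceptors, averaged 49.5 ± 27.1 CPM in *Orco* mutant (SD, n = 5) and 41.9 ± 22.7 CPM in wild-type organs (SD, n = 4). In all of these libraries *fd3F* had no count.

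Neuronal and glial markers were counted in every library. Dorsal organ receptor genes, 9 with *Orco* among them, summed to 323.4 to 811.0 CPM in *Orco* mutant and 523.4 to 755.2 CPM in wild-type libraries. Of the 8 receptor genes tested, 3 fold changes were positive and 5 negative, and only *Orco* passed. Log2 fold changes were positive for *Ir21a* (1.16), *Ir25a* (0.91) and *Ir93a* (0.68). Besides *Orco*, they were negative for *Or35a* (-7.93, adjusted p = 0.0883 in edgeR), *Or45a* (-2.93), *Or42a* (-2.06) and *Ir76b* (-0.09). *Or42b*, not tested, averaged 0.126 CPM in *Orco* mutant and 15.4 CPM in wild-type organs. The receptor sum thus pools genes that leaned in opposite directions. The 8 neuronal markers summed to 264.2 to 898.1 CPM in *Orco* mutant and 240.1 to 668.3 CPM in wild-type libraries, and the 3 sheath and socket cell markers to 68.2 to 163.7 CPM in *Orco* mutant and 84.6 to 132.5 CPM in wild-type libraries. The 4 glial markers summed to 1172 to 2425 CPM in *Orco* mutant and 991.6 to 1477 CPM in wild-type libraries. *Gs2* gave most of these sums, averaging 1423 CPM in *Orco* mutant and 1014 CPM in wild-type organs. Of the 4 glial fold changes 2 were positive and 2 negative, and none passed. The 5 muscle markers ranged from 58.4 to 1185 CPM in *Orco* mutant and from 212.7 to 1553 CPM in wild-type libraries. Hemocyte markers summed to at most 82.6 CPM and fat body markers to at most 175.2 CPM, both in *Orco* mutant libraries. In Orco mutant 3 both kinesin-2 motor chains were lowest and *btv* and *Rfx* highest. There the neuronal markers summed to 461.6 CPM with none of the 8 at 0, and the sheath and socket cell markers to 163.7 CPM. In that library 15 of the 35 other cilium genes were at 0, the most of any library. It also had counts in the fewest genes, 6790 of the 12748 counted in any library. The muscle markers summed to 1185 CPM in Orco mutant 3 and 1104 CPM in Orco mutant 5, the pair of libraries with the highest *btv*, and to 58.4 to 500.6 CPM in the other *Orco* mutant libraries. In wild-type organs they were highest in wild-type 2, at 1553 CPM, where *btv* rested on 1 count. The part of cell make-up and depth in these values was not tested.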

How the data were processed

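Dorsal organ RNA of 5 *Orco* mutant and 4 wild-type samples was converted to cDNA with Smart-seq2 and sequenced as single-end reads. The authors demultiplexed with CASAVA 1.8.2, removed adapter-containing reads with cutadapt 1.9.1 and estimated transcript abundance with kallisto 0.43.0 against FlyBase transcripts. The deposited tables hold estimated counts (expected counts, not normalized) per gene and per transcript of each library. Kallisto ran at its default settings, which do not use strand.

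Gene counts were rounded to whole numbers, filtered with filterByExpr (minimum count 10, minimum total 15), scaled with TMM and compared with the quasi-likelihood test of edgeR 4.0.16 in R 4.3.3, adjusted by the Benjamini-Hochberg method over all 8160 genes. Fold changes include a prior count of 0.125 while standard errors and 95% intervals do not, so an interval need not centre on its fold change. CPM was computed on the TMM-scaled library sizes. TPM was computed from transcript counts and annotated lengths. Ensembl's annotation of the Release 6 assembly gave the positions. The test was also run on counts simulated from the model it assumes, which cannot show whether these libraries follow that model.

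The members and lists were chosen with earlier results of these data known. Named genes were all 10 members, *Orco*, and of each other list the 3 tested genes with the smallest p and any that passed, and the text names *CG3769* by its identifier alone. *nan*, *iav*, *eys*, *Zmynd10*, *tctn*, *B9d2*, the receptor genes other than *Orco* and the overlapping genes were named after their values were seen. Marker lists are given by their sums, with *Gs2* named as the most abundant glial gene and the receptor genes named singly. Alternatives were RLE size factors, scaling by the total count (for the summed level alone), DESeq2 1.42.0, limma-voom (limma 3.58.1), no filter, 10 counts in at least 5 libraries, removal of rRNA-named and mitochondrial genes, the replicate number as a block, and leaving out each library. Replicate numbers did not pair the samples.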

Additional observations from a re-analysis of the deposited data

Results flagged for a closer look

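In each genotype, the highest or lowest library was compared with its nearest neighbour for the named cilium genes and their sum, and 2 of 48 groups of libraries held a value far from the rest. Chance alone would set apart about 1 in 20 such groups. *Rfx* in Orco mutant 3 was at 143.0 CPM, where the other *Orco* mutant libraries were at 14.3 to 26.2 CPM. *Klp68D* in wild-type 2 was at 61.0 CPM, where the other wild-type libraries were at 33.0 to 35.7 CPM.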

How the results depend on the processing

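None of the 9 tested cilium genes passed under the alternatives that gave a p, and the lowest adjusted p was 0.537, for *btv* in DESeq2. DESeq2 gave a fold change for *Rfx* but no p. Scaling by the total count was applied only to the summed level. In the settings run for them, *rempA* stayed negative and *btv* and *Rfx* positive. Leaving out 1 library at a time gave log2 fold changes of -0.50 to 0.11 for *Klp64D*, -0.27 to 0.30 for *Klp68D*, -0.51 to 0.28 for *Kap3*, -0.42 to 1.13 for *nompB*, -0.26 to 0.87 for *Oseg5*, 0.14 to 0.97 for *Oseg2*, -0.91 to -0.52 for *rempA*, 1.13 to 3.67 for *btv* and 0.37 to 1.84 for *Rfx*. It also gave -1.08 to 0.18 for *nompC*, -0.55 to 0.69 for *Heatr2* and -0.06 to 0.52 for *DCX-EMAP*. *Klp68D*, at 0.0043 in the reported fit, was -0.0012 with RLE size factors and -0.0029 in DESeq2. In limma-voom *Klp64D* was -0.63, *Kap3* -1.25, *Rfx* 0.70, *Oseg5* 1.16, *nompB* -0.29, *Oseg2* -0.80 and *Heatr2* -0.42. The cause of these changes was not tested.

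With the replicate number as a block, *Klp64D* was -0.91, *Kap3* -1.03, *Rfx* 0.94, *Klp68D* was -0.43, *nompB* -1.19, *Oseg2* -0.39, *Oseg5* -0.59, *ktub* -0.26 and *Heatr2* -0.84, and 1 gene passed as higher over the whole table. Same-numbered libraries did not deviate together (correlations -0.103 to 0.0284), so they share only a number. Over all genes, 0 passed as higher and 3 as lower in the reported fit, against 1 higher with no filter, 12 lower in limma-voom, and 47 higher and 64 lower in DESeq2, and leaving out 1 library gave 0 to 1 higher and 1 to 3 lower. In DESeq2, 1 of the other cilium genes passed as higher, *Cc2d2a*, a transition zone gene named after its values were seen. Its adjusted p was 0.0351 in DESeq2. EdgeR's count filter had left it out (256 counts in *Orco* mutant and 5 in wild-type libraries). With no filter, 0 of the other cilium genes passed as higher in edgeR.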
